A study of Homo sapiens with 6 samples.

Results

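The 10 genes described here are Bcr and Abl1, the cellular genes whose human counterparts fuse in chronic myeloid leukemia, and 8 genes for proteins that carry the signal of the fusion kinase: Grb2, Sos1, Shc1, Gab2, Crk, Crkl, Cbl and Ptpn11. They were taken by name from the 22413 genes of the expression table, and each was listed once. BaF3-T315I is a mouse cell line obtained by stable transfection of BaF3 cells, a line that depends on interleukin-3, with BCR-ABL carrying the T315I change in its kinase domain. Every sample, controls included, therefore carried the oncogene. The 3 control samples were compared with 3 samples given 1.1 µM I13, an inhibitor of histone deacetylases derived from indole-3-butyric acid, for 48 h. Neither the vehicle nor the time of the control is given in the labels, and they do not say whether the 3 samples of a group came from separate cultures. The study describes its experiments in general as independent, without naming the sequencing, so the p-values may measure only the spread between these samples.

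BCR-ABL is a tyrosine kinase that is always active. A phosphorylated tyrosine in its BCR part binds the adaptor GRB2, which brings the exchange factor SOS1 to RAS and the docking protein GAB2 to the kinase. GAB2 in turn binds the phosphatase SHP2, the product of Ptpn11, and phosphatidylinositol 3-kinase, while SHC1, CRK and CRKL form further bridges and the ubiquitin ligase CBL restrains activated kinases.

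Levels are in FPKM, in which the fragments of a gene are divided by its length in kilobases and by the number of fragments in the library. Library totals recovered from the values ran from 16762119 to 17722950 fragments, and the 10 genes had between 303 (Bcr, I13 replicate 1) and 5258 fragments (Cbl, I13 replicate 1) in a sample. Of the 14 markers chosen for the BaF3 line, 10 were analysed and 6 were above 1 FPKM in every sample, led by the receptor subunit genes Csf2rb (239 to 838 FPKM) and Csf2rb2. The B lineage genes Cd79a (14.1 to 27.5 FPKM) and Cd79b (3.57 to 6.94 FPKM) were expressed, whereas Ebf1, Pax5, Igll1 and Vpreb1, other markers of early B cells, were at or near 0. The summed level of the BaF3 markers was 472 to 929 FPKM in the control and 951 to 1700 FPKM after I13, and that of 4 macrophage markers was 23.0 to 46.4 and 53.0 to 87.2 FPKM, mostly Adgre1, with Csf1r near 0. That of 3 erythroid markers was 0.413 to 1.27 and 2.19 to 7.52 FPKM. T cell markers reached 0.394 FPKM in sum, the fibroblast marker Col1a1 reached 0.13 FPKM, and the epithelial markers were not analysed here. The part of these markers in the results that follow was not tested. In RNA from whole cultures, fewer cells with a transcript and less of it per cell cannot be told apart.

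None of the 10 genes was called at the thresholds of the study, an adjusted p below 0.05 and a log2 fold change of at least 0.58 in either direction, in a comparison by limma on log2(FPKM + 0.1), where 0.0411% of the 12163 genes tested were called. None was called with the replicate number as a block either, where 1.89% of all genes were. The study names no test for its sequencing. It reports more genes past these thresholds than either fit called, so these are not its calls. At an unadjusted p below 0.05, 1 gene was higher after I13 (Ptpn11) and 2 were lower (Bcr and Abl1), against 7.79% and 10.8% of all genes. The control and I13 values did not overlap in 4 of the 10 genes. Of these, 2 were higher after I13 (Crk and Ptpn11) and 2 lower (Bcr and Abl1), whereas 9.82% and 15.4% of all genes did not overlap in these directions. The median log2 fold change of the 10 genes was -0.05, beside -0.005 for all genes tested.

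**Figure D1:**
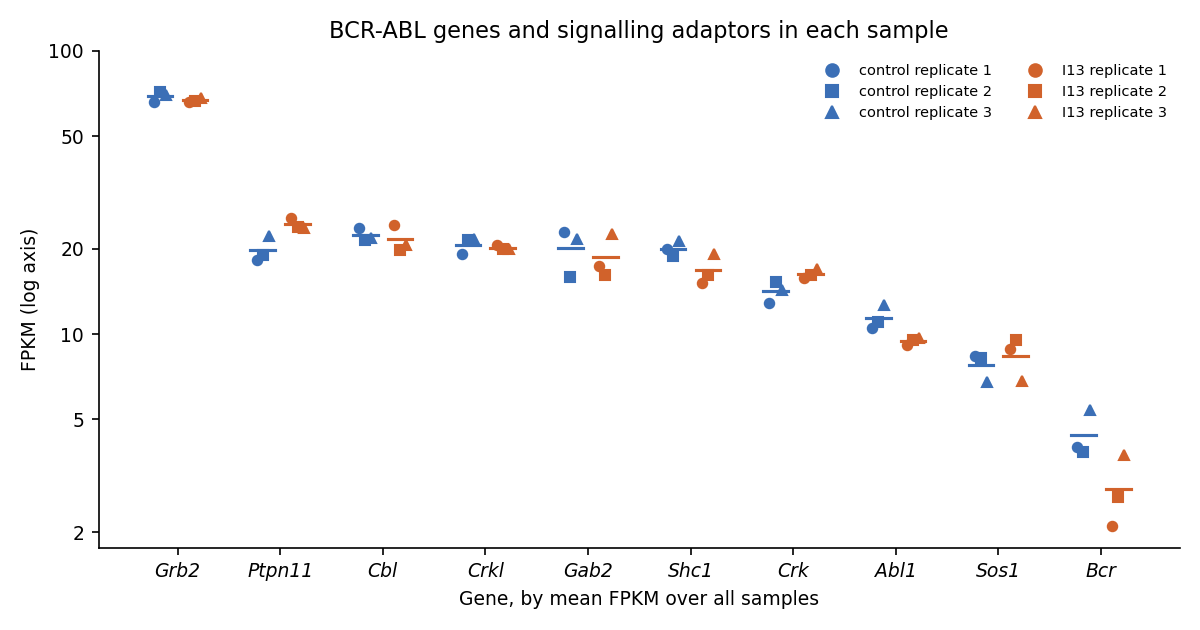
FPKM of the 10 genes (log axis) in the 3 control and 3 I13 samples, with each point 1 sample and each bar a group mean. Grb2 lay between 65.8 and 71.8 FPKM in every sample, and Bcr was the lowest gene, from 2.10 to 5.38 FPKM.

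Bcr (ENSMUSG00000009681) encodes a GTPase-activating protein and, in the fusion, supplies the part that brings kinases together and binds GRB2. Bcr had 4.01, 3.82 and 5.38 FPKM in replicates 1, 2 and 3 of the control, and in those of I13 it had 2.10, 2.67 and 3.73 FPKM. Every I13 sample lay below every control, though I13 replicate 3 came just under control replicate 2. The I13 mean of 2.83 ± 0.829 FPKM (SD, n = 3) was 64.4% of the control mean of 4.40 ± 0.851 FPKM (SD, n = 3). On the log2 scale the fold change was -0.64 (standard error 0.23, 95% interval -1.18 to -0.10), with an adjusted p of 0.211 from limma and 0.0623 with the replicate block. This was larger in size than the log2 fold change of 92.4% of all genes tested. The same-numbered samples differed by -0.90, -0.50 and -0.52 on the log2 scale, so the sign was the same in each pair. When voom was run on the recovered fragments with the block, Bcr was the 1 gene of the 10 with an adjusted p below 0.05 (0.0112, log2 fold change -0.65), against 12.4% of all genes. When both samples of 1 replicate number were left out, that adjusted p was 0.00121, 0.192 and 0.00458 for replicates 1, 2 and 3. In these fits 1982, 11 and 1911 of the 12160 genes tested had an adjusted p below 0.05. Without replicate 1 the log2 fold change of Bcr was -0.52, under the threshold in size. The counting error of Bcr, about 4.39% of its level, was well under the variation between samples of 19.3% in the control and 29.3% after I13.

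Abl1 (ENSMUSG00000026842) encodes the tyrosine kinase that gives the fusion its activity. Control replicates 1, 2 and 3 had 10.5, 11.0 and 12.7 FPKM, and I13 replicates 1, 2 and 3 had 9.18, 9.54 and 9.67 FPKM. The I13 samples were close to each other and all below the controls. The mean after I13, 9.46 ± 0.254 FPKM (SD, n = 3), was 83.2% of the control mean of 11.4 ± 1.14 FPKM (SD, n = 3). The log2 fold change of -0.26 (standard error 0.10, 95% interval -0.501 to -0.015) had an adjusted p of 0.246 from limma.

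The table has no row for the fusion, since all 22413 identifiers are those of mouse genes. Fragments of the transfected BCR-ABL may have been counted on Bcr and Abl1 or on no gene, and the cellular and transfected sources cannot be told apart in these values. The level of Bcr as a percentage of that of Abl1, which does not depend on the scaling between libraries, was 38.2%, 34.8% and 42.5% in control replicates 1, 2 and 3. It was 22.9%, 27.9% and 38.6% in the I13 replicates, so that I13 replicate 3 lay within the range of the controls. The log2 ratio was -1.36 ± 0.14 in the control and -1.74 ± 0.37 after I13 (SD, n = 3 each), a difference of -0.38 (exact two-sided permutation test, p = 0.3, where the smallest p this design allows is 0.1).

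**Figure D2:**
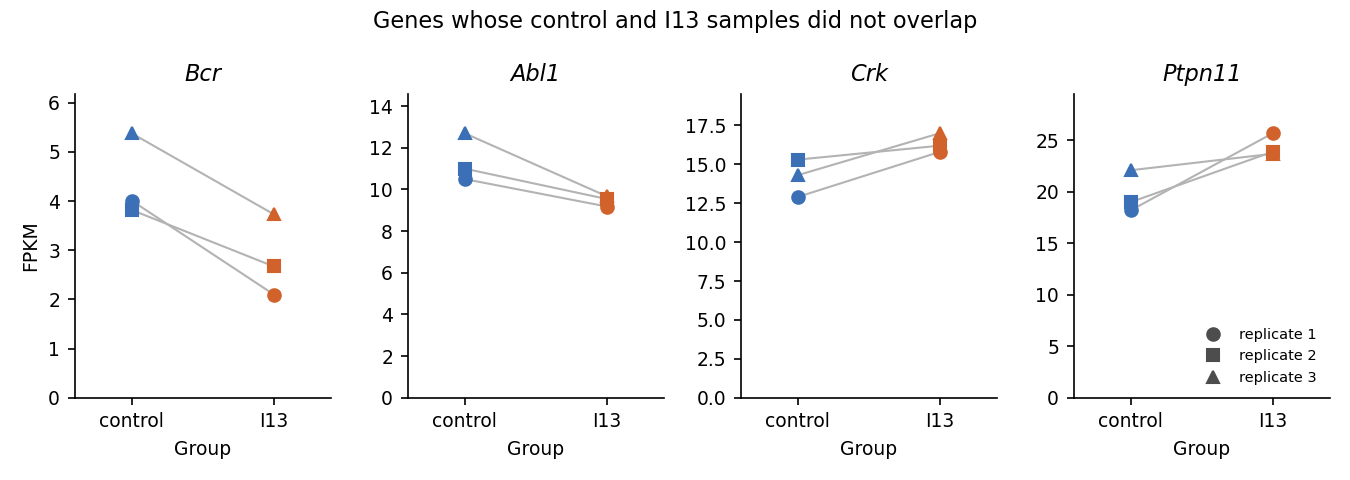
FPKM of Bcr, Abl1, Crk and Ptpn11 in control and I13 samples, on axes from 0, with lines between samples of the same replicate number. Bcr and Abl1 were lower and Crk and Ptpn11 higher in each of the 3 pairs, with Bcr at 3.73 FPKM in I13 replicate 3 close to 3.82 FPKM in control replicate 2.

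Of the proteins that lead from BCR-ABL to RAS, GRB2 and SOS1 form the core. Grb2 (ENSMUSG00000059923), the adaptor with SH2 and SH3 domains, ranged from 65.8 to 71.8 FPKM in the control and from 66.2 to 67.9 FPKM after I13, within the range of the controls. Its log2 fold change of -0.05 had the narrowest interval of the 10 genes, -0.23 to 0.14 (adjusted p = 0.774 from limma). Sos1 (ENSMUSG00000024241), the exchange factor that GRB2 carries, was at 7.80 ± 0.878 and 8.40 ± 1.39 FPKM (SD, n = 3 each). Replicate 3 was the lowest Sos1 sample in both groups, at 6.79 and 6.84 FPKM. The log2 fold change of Sos1 was 0.10 (95% interval -0.26 to 0.46, adjusted p = 0.765 from limma).

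Shc1 (ENSMUSG00000042626) encodes an adaptor that binds phosphotyrosine and offers GRB2 another way to the kinase. Shc1 had 19.9, 18.8 and 21.3 FPKM in replicates 1, 2 and 3 of the control, against 15.1, 16.1 and 19.1 FPKM in those of I13. I13 was lower in each of the 3 pairs, but I13 replicate 3 lay above control replicate 2. This was a log2 fold change of -0.26 (standard error 0.11, 95% interval -0.525 to 0.011, adjusted p = 0.282 from limma). It was nearly that of Abl1, but the I13 samples of Shc1 varied more, by 12.2% of their mean (coefficient of variation) against 2.68% for Abl1.

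Gab2 (ENSMUSG00000004508) encodes the docking protein through which BCR-ABL reaches SHP2 and phosphatidylinositol 3-kinase. Its control values were 23.0, 15.9 and 21.6 FPKM and its I13 values 17.4, 16.1 and 22.6 FPKM in replicates 1, 2 and 3. Replicate 2 was the lowest sample in both groups and the groups overlapped widely. The log2 fold change of -0.11 had an interval of -0.53 to 0.32 (adjusted p = 0.791 from limma), which covers both lower and higher levels.

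Ptpn11 (ENSMUSG00000043733) encodes SHP2, a phosphatase that promotes RAS signalling below GAB2. Replicates 1, 2 and 3 had 18.2, 19.0 and 22.1 FPKM in the control and 25.7, 23.9 and 23.7 FPKM after I13. All I13 samples lay above all controls, and the means were 19.8 ± 2.09 and 24.4 ± 1.06 FPKM (SD, n = 3 each), the second being 124% of the first. Its log2 fold change was 0.31 (standard error 0.10, 95% interval 0.07 to 0.55) with an adjusted p of 0.190 from limma and 0.119 with the block. The pairs differed by 0.50, 0.33 and 0.10 for replicates 1, 2 and 3.

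Crk (ENSMUSG00000017776) and Crkl (ENSMUSG00000006134) encode related adaptors of SH2 and SH3 domains, and CRKL is a well-known substrate of BCR-ABL. Crk had 12.9, 15.3 and 14.3 FPKM in replicates 1, 2 and 3 of the control, and the I13 samples, with 15.8, 16.2 and 17.0 FPKM, all lay above them. Its log2 fold change was 0.20 (95% interval -0.03 to 0.43, adjusted p = 0.316 from limma). Crkl was at 19.2 to 21.6 FPKM in the control and 19.9 to 20.6 FPKM after I13, and its log2 fold change of -0.04 had an interval of -0.245 to 0.167 (adjusted p = 0.842 from limma).

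Cbl (ENSMUSG00000034342) encodes the ubiquitin ligase that is bound and phosphorylated by BCR-ABL. It ranged from 21.5 to 23.6 FPKM in the control and from 19.8 to 24.2 FPKM after I13, with I13 replicate 1 the highest and I13 replicate 2 the lowest of all samples. The log2 fold change was -0.05 (95% interval -0.30 to 0.19, adjusted p = 0.818 from limma), and without I13 replicate 2 it was 0.005.

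**Figure D3:**
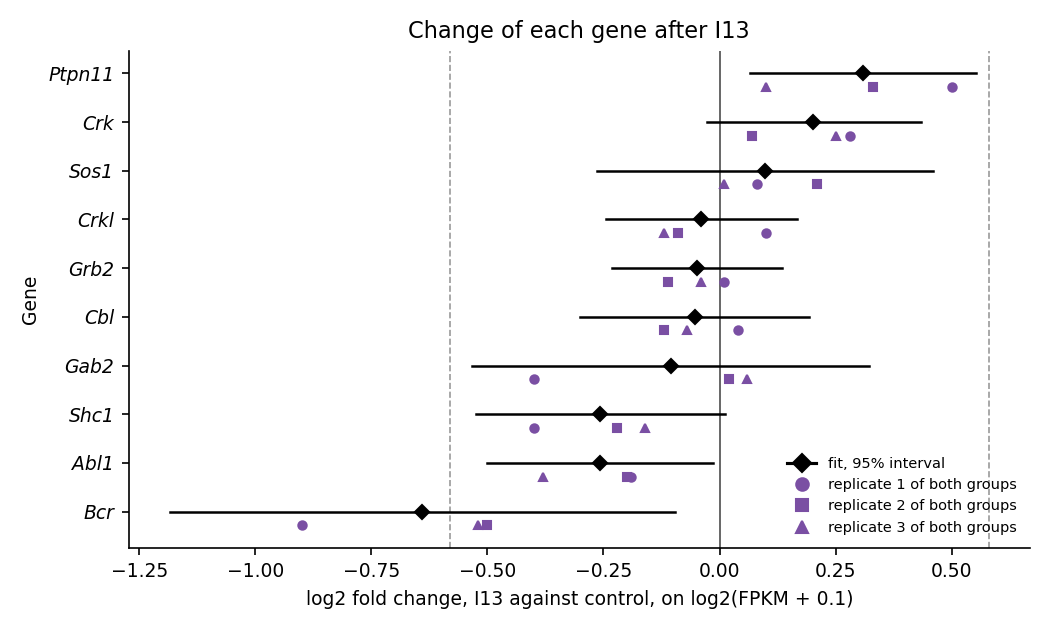
Log2 fold change of each gene after I13 on log2(FPKM + 0.1), with the 95% interval of the limma fit (diamonds and lines) and, just under it, the difference in each pair of same-numbered samples. Dashed lines mark 0.58 in either direction, which the estimate passed for Bcr (-0.64), with an interval from -1.18 to -0.10.

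Since FPKM is per length, the levels of the genes can be set beside each other. In the control the order was Grb2, Cbl, Crkl, Gab2, Shc1, Ptpn11, Crk, Abl1, Sos1 and Bcr. The samples of Cbl, Crkl, Gab2, Shc1 and Ptpn11, with means from 22.3 down to 19.8 FPKM, overlapped from each gene to the next, whereas Grb2, Crk, Abl1, Sos1 and Bcr were each separate from their neighbours. After I13, Ptpn11 held the second place at 24.4 FPKM and overlapped with Cbl alone of its neighbours. Abl1 and Sos1, at 9.46 and 8.40 FPKM, now overlapped. The highest gene, Grb2, was 13 to 18.8 times the lowest, Bcr, in the control samples and 18.2 to 31.5 times in the I13 samples. The summed FPKM of the 10 genes was 206 to 217 in the control and 200 to 211 after I13, and Grb2 made up 32.0% to 34.7% of it over all samples.

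Most of the 10 genes have a close relative in the genome, and the relatives were present at different levels. Grb2 exceeded Grap, its hematopoietic relative, 4.88 to 6.65 times over all samples, and Cbl exceeded Cblb 3.50 to 4.10 times. Shc1 was the predominant SHC gene, as Shc4 stood at 0.582% to 1.66% of its level and Shc2 was near 0. Abl2 was close to Abl1, at 66.6% to 100% of its level in the control and 84.0% to 109% after I13. Abl2 itself had a log2 fold change of 0.01 (95% interval -0.34 to 0.35, adjusted p = 0.982 from limma). How the counting treated fragments that fit more than 1 relative is not given in the sources used here.

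The ratios that separated the groups were picked after the values were seen and were not tested. Abr, which encodes a GTPase-activating protein related to BCR, stood at 113% to 136% of the level of Bcr in the control and at 228% to 278% after I13. The level of Abr itself was 5.17, 4.31 and 7.30 FPKM in replicates 1, 2 and 3 of the control, against 5.79, 6.07 and 10.4 FPKM in those of I13. Replicate 3 was the highest sample of Abr, as of Bcr, in both groups, and the Abr groups overlapped, with a log2 fold change of 0.38 (95% interval -0.26 to 1.02, adjusted p = 0.485 from limma). Abr was nevertheless higher in each of the 3 pairs, and its adjusted p was 0.102 with the block and 0.0338 when voom was blocked too. Leaving out 1 sample gave log2 fold changes from 0.12 (without I13 replicate 3) to 0.59 (without control replicate 3). Crk stood at 66.0% to 71.8% of Crkl in the control and at 76.5% to 85.5% after I13. Gab3, a minor relative of Gab2, stood at 2.94% to 3.30% of Gab2 in the control and at 7.69% to 7.91% after I13.

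**Figure D4:**
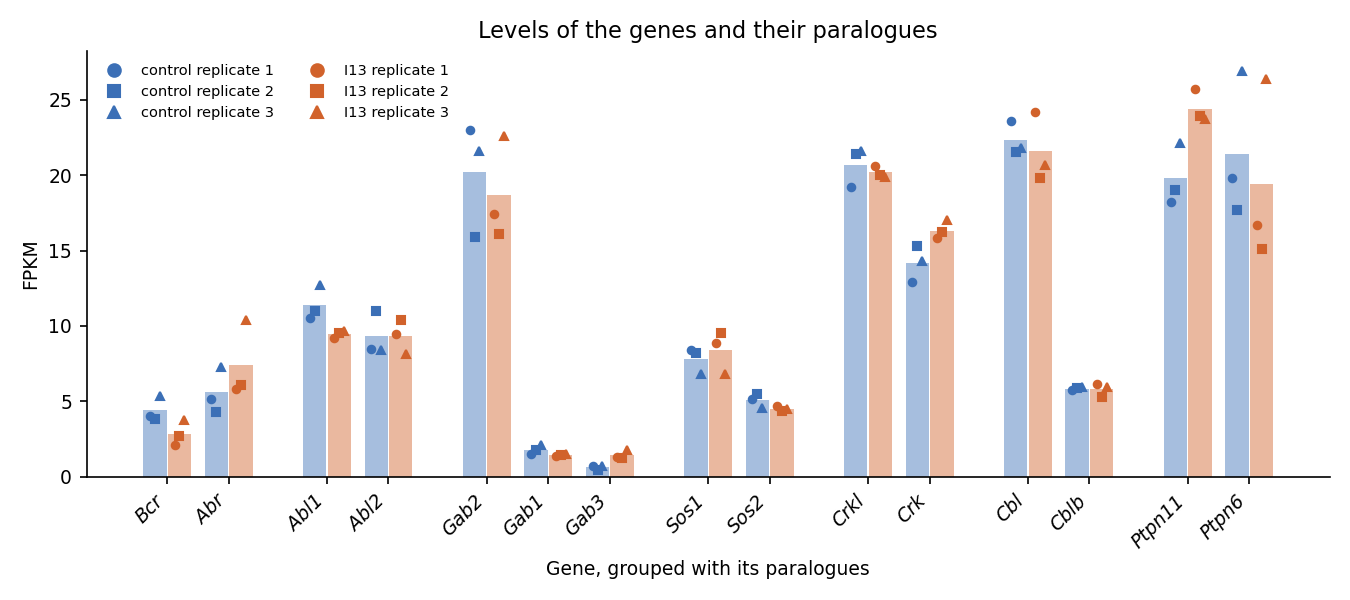
FPKM of 7 of the genes beside their relatives, with bars for group means, points for samples and the axis from 0. After I13 the bar of Abr stood above that of Bcr (7.41 and 2.83 FPKM), from 5.59 and 4.40 FPKM in the control, while Gab1 and Gab3 reached at most 2.09 FPKM.

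The genes around these 10 were described with 60 genes in 6 lists by role, of which 58 were analysed and 54 tested. Of the 54, 26 were higher and 28 lower after I13, with a median log2 fold change of -0.01. None was called without the block, and 1 was called with it. At an unadjusted p below 0.05, 5 (9.26%) were higher and 7 (13%) lower, and the groups did not overlap for 6 (11.1%) in the higher and 8 (14.8%) in the lower direction. Over all lists together, these shares lay near those of all genes given above. With voom and the block, 9 of the 54 (16.7%) had an adjusted p below 0.05, against 12.4% of all genes. Abr, Gab3, Rasa1, Braf, Pik3r1 and Jak2 were the higher ones after I13, and Dok2, Pik3cd and Akt2 the lower ones.

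The gene called with the block was Dok2, among the 14 other adaptors tested. DOK2 recruits the RAS-GAP protein p120 and restrains RAS below BCR-ABL and other kinases. Dok2 had 58.8, 61.0 and 69.1 FPKM in replicates 1, 2 and 3 of the control, against 38.4, 40.9 and 42.0 FPKM in those of I13, so that the groups were far apart relative to their spread. Its mean after I13 was 64.2% of the control, and its log2 fold change was -0.64 (standard error 0.09). The adjusted p was 0.086 from limma without the block and 0.0322 with it, where 2.99% of all genes had an adjusted p below 0.05. When both samples of 1 replicate number were left out of the fit with the block, it was 0.0504, 0.26 and 0.0801 for replicates 1, 2 and 3. Gab3 had the largest log2 fold change of this list, 1.12 (95% interval 0.50 to 1.74, adjusted p = 0.116 from limma, or 0.0648 when blocked), from 0.621 ± 0.135 to 1.46 ± 0.265 FPKM (SD, n = 3 each). With voom and the block, Gab3 was called with Dok2, at a log2 fold change of 1.22 and an adjusted p of 0.0105, which was 0.194 without both samples of replicate 2. Dok1, a relative of Dok2, was at 32.0 ± 4.98 and 31.7 ± 2.30 FPKM (SD, n = 3 each).

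Of the 14 genes of the RAS and MAP kinase list, 4 were higher and 10 lower after I13, with log2 fold changes from -0.31 to 0.34 and adjusted p-values of 0.165 or more from limma. At an unadjusted p below 0.05, 3 (21.4%) were higher and 4 (28.6%) lower, and the groups did not overlap for as many in each direction. These shares were larger than those of all genes, as a description of this list with no test of it. Rasa1, which encodes the RAS-GAP protein p120, had the largest change, from 7.10 ± 0.726 to 8.98 ± 0.791 FPKM (SD, n = 3 each), without overlap between the groups.

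Of the 12 genes of phosphatidylinositol 3-kinase and AKT, 7 were higher and 5 lower, and Pik3r3 had the largest log2 fold change, 0.45 (95% interval -0.14 to 1.05, adjusted p = 0.379 from limma), at about 1 FPKM. The 2 genes of this list at an unadjusted p below 0.05, Pik3cd and Akt2, were named after their values were seen, and both lay lower after I13 without overlap. Pik3cd, the catalytic subunit gene typical of blood cells, was at 53.7 ± 6.18 and 41.3 ± 6.15 FPKM (SD, n = 3 each), with an adjusted p of 0.214 from limma, 0.0663 with the block and 0.0214 in the blocked voom fit. Akt2 was at 23.1 ± 1.88 and 18.0 ± 2.31 FPKM (SD, n = 3 each), with an adjusted p of 0.189 from limma, 0.11 with the block and 0.0476 in the blocked voom fit. In the blocked voom fit Pik3r1 also had an adjusted p below 0.05 (0.0462), but it was higher after I13 (log2 fold change 0.415). Pik3r1 was at 4.5 ± 0.924 and 6.16 ± 2.57 FPKM (SD, n = 3 each). It was higher in each of the 3 pairs, though the groups overlapped. Its adjusted p was 0.489 from limma and 0.133 with the block, and it too was named after its values were seen. Among 6 kinases tested, Jak2 had the largest log2 fold change, 0.37 (standard error 0.11, adjusted p = 0.162 from limma). Jak2 was at 10.1 to 12.7 FPKM in the control and 15.0 to 15.4 FPKM after I13, without overlap. Among 6 phosphatase, CBL and STS genes tested, Ubash3a had the largest, -0.22 (adjusted p = 0.537 from limma), and no gene of this list had an unadjusted p below 0.05.

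**Figure D5:**
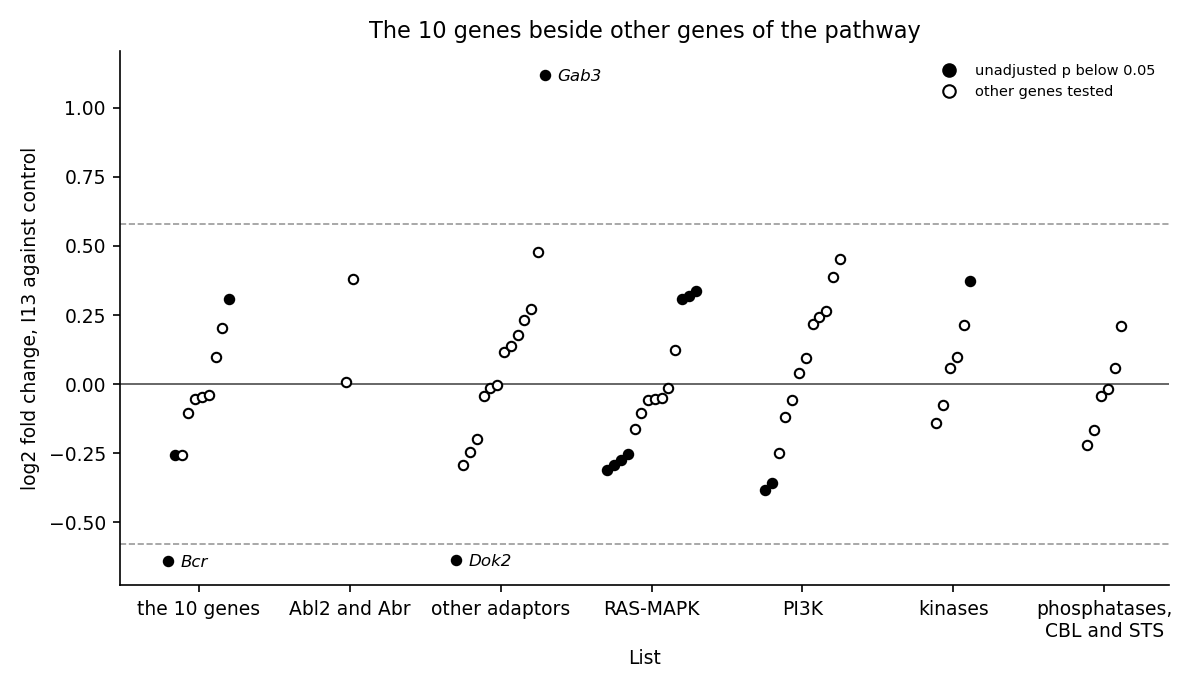
Log2 fold changes after I13 of the 10 genes and of the 54 other genes tested, by list, with filled points for an unadjusted p below 0.05 and dashed lines at 0.58 in either direction. Bcr (-0.64), Dok2 (-0.64) and Gab3 (1.12) lay past the lines and the other genes within them.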

How the data were processed

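mRNA libraries of 3 control and 3 I13 samples were stranded. The authors deposited 1 table of FPKM values, not pooled and with no stated scaling between samples. The labels' processing notes name Trimmomatic, HISAT2, Cufflinks and HTSeq without versions, and the build hg38 and a human organism, whereas the identifiers are those of mouse genes and the study calls the cells murine. They were treated as mouse genes. The reference at hand was human, so no sequence or coordinate is printed. Of the columns of sample values, 0 were left without a sample.

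Whole fragments were recovered from the FPKM, within 0.03 fragments, for 22412 of 22413 genes. Intervals are 95% confidence intervals of the difference between the groups on the log2 scale, estimated from the spread between samples. limma 3.58.1 in R 4.3.3 was run on log2(FPKM + 0.1) in the 12163 genes that averaged 0.5 FPKM or more over the 6 samples, using eBayes with a trend and Benjamini-Hochberg adjustment over all of them. Fold changes on this scale are understated for low genes. The fits were also run on simulated fragments with known changes. The noise added there had the same size for every gene, so this says little about the calls in these data.

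Deviations from the group means correlated at 0.15, 0.30 and 0.22 between same-numbered samples over the genes tested, and between -0.26 and 0.05 otherwise. The deviations are centred within each group, so positive correlations for some pairs of samples go with negative ones for others, which limits this check. The numbers were taken as pairs in the fits with the block and in the differences by pair. That pairing rests on the labels' replicate numbers and this check. The limma fit without the block, with its intervals, and the permutation test of the ratio of Bcr to Abl1 did not use the pairs.

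The 10 genes, the role and marker lists and the tests were chosen with earlier results of these data known. Named besides the 10 were list genes with an adjusted p below 0.05 in limma with or without the block, and the largest change of each list. Relatives of the 10 genes, Dok1, Braf, Pik3cd, Akt2 and Pik3r1 were named in addition. Some list genes are not reported here by name. Alternatives were other pseudocounts, filters, scalings and eBayes settings, the block, voom on the fragments and leaving out samples. Python 3.11.15 and matplotlib 3.10.9 served for the figures.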

Additional observations from a re-analysis of the deposited data

How the results depend on the processing

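Over the 10 genes and 17 alternatives each, 168 of 170 comparisons kept their direction and their side of an adjusted p of 0.05. The exceptions were Bcr with voom and the replicate block, and Cbl, whose log2 fold change was 0.005 without I13 replicate 2 and otherwise down to -0.138, without I13 replicate 1. None of the 10 genes had an adjusted p below 0.05 in limma without the block. Nor did any gene tested when 1 sample was left out, so keeping the side of 0.05 says little there. The number of the 10 genes called was 0 in limma with and without the replicate block (3 at an unadjusted p below 0.05 without it and 4 with it), and 1 with voom and the block. For the other pathway genes the number was 0, with 1 under the block and 2 under voom and block together. Over all genes, 5 were called. This was 2 under quantile normalization, under median-ratio scaling or at a pseudocount of 0.01, and 8 when all genes were tested or eBayes had no trend. It was 230 with the replicate block and 503 when voom was added to it. When 1 of the 6 samples was left out it was 0 each time in limma, with fewer samples in each fit, and 1478 to 2482 genes had an unadjusted p below 0.05. The log2 fold change of Bcr ran from -0.85 (without I13 replicate 3) to -0.45 (without I13 replicate 1). The log2 ratio of Bcr to Abl1 kept its sign under every alternative, from -0.58 without I13 replicate 3 to -0.21 without I13 replicate 1, and was -0.38 with the replicate block (exact sign-flip test, p = 0.25, the smallest it can give).

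The fits with the block that leave out both samples of a number were chosen after seeing the data. Over all genes they called from 0 to 83 genes in limma (1638 to 3160 at an unadjusted p below 0.05). With voom they called from 11 to 808 genes (536 without replicate 1). Of the pathway genes they called 0 in limma (5 to 18 at an unadjusted p below 0.05) and from 0 to 3 with voom, and of the 10 genes 0 in limma (1 to 3 at an unadjusted p below 0.05) and from 0 to 1 with voom. Without replicate 1 the log2 fold change of Gab2 was 0.041 in limma and 0.043 with voom, and without replicate 3 that of Crkl was 0.002 in both. With voom, the adjusted p of Abl1 was 0.0176 without replicate 1 and that of Ptpn11 0.0187 without replicate 3. Beyond the values given, the block changed no call of a named gene in limma, and the causes were not tested. Bcr, at 303 to 776 fragments, was the gene of the 10 with the least depth.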
